A study of Mus musculus with 18 samples.

Results

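Transforming growth factor beta (TGF-beta) and activin transcripts were followed in the mouse dura mater, the outer membrane of the brain, through 10 genes: the ligands Tgfb1, Tgfb2 and Tgfb3, the activin subunits Inhba and Inhbb, the activin inhibitor Fst, the latent TGF-beta binding protein genes Ltbp1 and Ltbp2, and the receptors Tgfbr1 and Tgfbr2. They were taken by symbol. Each of the 10 had exactly 1 probe set of its own, among the 19937 genes measured by probe sets with exactly 1 symbol. TGF-beta ligands are secreted in a latent complex that is anchored to the extracellular matrix, and activins, dimers of inhibin beta subunits, are neutralised by follistatin. Both families signal through type II and type I receptor kinases to SMAD transcription factors, and both are known for roles in scar formation, matrix deposition and the restraint of inflammation.

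The question was what an experimental stroke does to meningeal transcripts and what mast cells contribute. It used 3 categories of male mice of 17 to 21 weeks. Wild-type mice were WBB6F1-Kit+/+. Mast cell-deficient mice were WBB6F1-KitW/W-v, which carry 2 mutant alleles of Kit, the receptor on which mast cells depend, and engrafted mice were of that same genotype and had been given mast cells by vein 8 to 10 weeks earlier. Kit is also used by other cells, among them blood progenitors and melanocytes, so both mutant categories differ from wild type in more than mast cells. Every category was divided into 3 naive mice and 3 in which a filament had blocked the middle cerebral artery for 30 minutes, and the dura was taken 2 days later. Dura from each mouse was run on an array of its own, so that the 18 arrays stand for 18 mice. The naive mice had no sham operation, and a difference between stroke and naive therefore includes any effect of the surgery.

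Values are on the log2 scale, where a difference of 1 is a 2-fold level. Array medians lay between 7.77 and 7.91. Markers of dural fibroblasts were high in every group, with mean levels of 12.23 to 12.36 over 8 genes. Ttr, a transcript of the choroid plexus of the brain, was far lower in 5 arrays (9.03 to 10.17) than in the other 13 (13.03 to 13.78). The 5 were naive deficient mice 1 and 3, naive engrafted mouse 3, wild-type stroke mouse 2 and deficient stroke mouse 2. Some called results of members, not all, are given with and without them. Where a result is said to pass in every alternative, the fit without these 5 is among them. Because the dura was measured in bulk, fewer cells of a type and less RNA per cell cannot be told apart.

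The promoters of the members that passed the test below in wild type or in every category (Tgfb1, Inhba and Ltbp2) are shown because 2 of them were higher after stroke and the other lower. The 250 bases before the listed start site come from RefSeq (GRCm38.p6), on the gene's strand. An entry was held for 8 of the 10 members. Capitals mark the letters GGGCGG (GC box, bound by Sp1) and TATAAA (the core promoter element of the TATA-binding protein). Also searched were CCAAT (bound by NF-Y), the SMAD-binding core CAGACA (named the CAGA box), the AP-1 site as TGAGTCA, the cyclic AMP response element (CRE) as TGACGTCA and the SMAD palindrome GTCTAGAC, each searched on both strands.
Tgfb1, chr7:25686752-25687001, plus strand: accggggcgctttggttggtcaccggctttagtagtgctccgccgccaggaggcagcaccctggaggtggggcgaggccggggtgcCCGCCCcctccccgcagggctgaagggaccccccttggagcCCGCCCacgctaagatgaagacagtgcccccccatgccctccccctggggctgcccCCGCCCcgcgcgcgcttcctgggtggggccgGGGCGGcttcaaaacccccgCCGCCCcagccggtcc
Inhba, chr13:16011601-16011850, plus strand: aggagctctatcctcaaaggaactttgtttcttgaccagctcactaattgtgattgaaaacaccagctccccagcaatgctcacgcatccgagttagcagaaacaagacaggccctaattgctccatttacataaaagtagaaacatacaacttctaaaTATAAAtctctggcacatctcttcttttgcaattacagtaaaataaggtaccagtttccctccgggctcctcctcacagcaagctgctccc
Ltbp2, chr12:84876492-84876741, minus strand: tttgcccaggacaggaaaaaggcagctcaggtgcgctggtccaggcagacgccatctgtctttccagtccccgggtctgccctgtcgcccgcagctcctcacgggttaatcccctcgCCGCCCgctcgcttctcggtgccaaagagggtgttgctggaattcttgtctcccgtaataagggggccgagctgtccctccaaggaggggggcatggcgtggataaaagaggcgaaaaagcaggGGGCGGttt
Tgfb1 held 5 GC boxes and Ltbp2 held 2, at positions from -164 to -16 and at -133 and -9 from the start site, against 32.7% of 32851 promoters of this length with at least 1. Inhba held neither of these but 1 TATAAA at -91, a motif found in 12.4% of promoters. The listed Inhba start lies inside the annotated gene, not at its outer end. None of these 3 windows held the NF-Y site, CAGA box, AP-1, CRE or SMAD palindrome letters, which occur in 33.8%, 17.1%, 4.46%, 1.55% and 0.167% of promoters. The letter matches are a description and were not tested for binding.

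After stroke in wild-type dura, 2 ligand genes rose and 1 gene of the latent TGF-beta binding protein family fell. Tgfb1 was 1.66 times and Inhba 1.93 times its naive level, and Ltbp2 fell to 0.673 of it. These 3 of 10 members passed limma's adjusted p of 0.05, against 10.9% of all 21640 probe sets tested (6.24% higher and 4.63% lower). In deficient dura 1 of 10 passed, against 0.25% of all probe sets, and in engrafted dura 1 of 10, against 1.11%; it was Ltbp2, lower, in both. The median difference of the 10 members was 0.12 in wild type, 0.01 in deficient and 0.03 in engrafted dura, beside 0.01, 0.04 and -0.01 over all probe sets tested. The 3 stroke comparisons use separate mice.

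**Figure D1:**
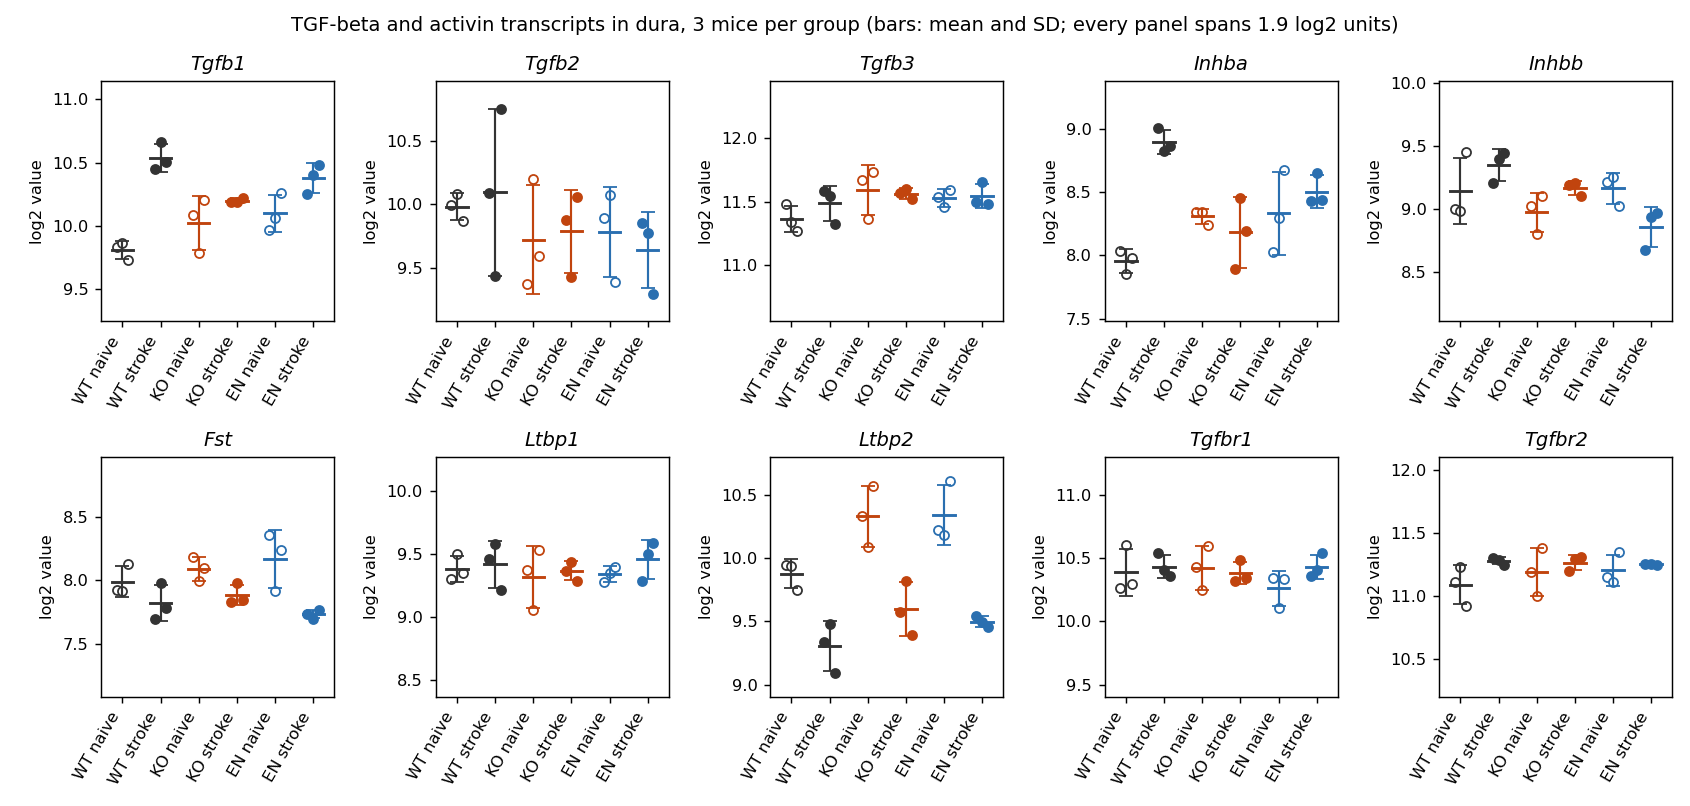
Log2 values of the 10 members in each of 18 mice (points), with group mean and SD (bars), for wild-type (WT), mast cell-deficient (KO) and engrafted (EN) mice, naive (open) or after stroke (filled). Tgfb1 and Inhba are highest in wild-type stroke dura, and Ltbp2 is lower in stroke than in naive dura in each category.

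Tgfb1 (probe set 10551185), the ligand most associated with immune cells and wound repair, stood at 9.83, 9.86 and 9.73 in the naive wild-type mice and at 10.45, 10.66 and 10.51 after stroke. The naive and stroke values did not overlap, and the difference of 0.73 ± 0.10 (log2, SE) passed the test (adjusted p = 0.000299). In deficient dura the naive values were 10.08, 9.79 and 10.20 and the stroke values 10.18, 10.19 and 10.22, so that the groups overlapped (0.17 ± 0.10, adjusted p = 0.456). In engrafted dura the naive values were 9.97, 10.06 and 10.26 and the stroke values 10.25, 10.40 and 10.48, with an overlap of 1 array on each side (0.28 ± 0.10, adjusted p = 0.268). By group mean the order after stroke was wild type, engrafted, deficient, but none of the 3 differences passed: engrafted minus wild type was -0.16 with overlapping values (adjusted p = 0.604), engrafted minus deficient 0.18 (0.816) and deficient minus wild type -0.34 (0.105). In naive dura wild type had the lowest mean.

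The stroke response of Tgfb1 in deficient dura was smaller than that in wild type by 0.56 ± 0.14, which did not pass (adjusted p = 0.165, 95% interval -0.86 to -0.25). The difference between engrafted and wild type was -0.45 ± 0.14 (adjusted p = 0.228). The wild-type response of Tgfb1 passed in every alternative tried, at 0.51 to 0.78. The difference between its deficient and wild-type responses passed without naive deficient mouse 2 (adjusted p = 0.0258). It did not pass in the other 17 fits that left out 1 array (adjusted p of up to 0.387). Of the 10 other alternatives, 9 did not call it, and the difference ran from -0.605 to -0.255 over those 10. Within naive deficient, naive engrafted and wild-type stroke dura, the mouse highest in Tgfb1 was one of the 5 with low Ttr, whereas in deficient stroke dura the low-Ttr mouse (10.19) lay below the highest (10.22). Without those 5 arrays the wild-type response was 0.67. In that fit the difference between the deficient and wild-type responses was -0.255, the weak end of the range above. Naive deficient dura was then held by 1 array, mouse 2, at 9.79 the lowest of its group in Tgfb1.

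Tgfb3 and Tgfb2, the ligands best known from development, did not pass in any comparison. Tgfb3 (probe set 10401673) varied little, from 11.27 to 11.74 over the 18 mice, with stroke differences of 0.12 ± 0.10 in wild type, -0.03 ± 0.10 in deficient and 0.02 ± 0.10 in engrafted dura. The 95% intervals of these 3 differences ran from -0.23 to 0.33. Tgfb2 (probe set 10360920) was the member that varied most within groups. Its 3 values after stroke in wild type were 10.09, 9.43 and 10.76, and in naive deficient dura 9.37, 10.20 and 9.59. Stroke differences of Tgfb2 were 0.11, 0.07 and -0.14, each with an SE of 0.29, and the 95% intervals reached from -0.76 to 0.73.

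Tgfb2 lay at 9.37 to 9.59 (median 9.42) in the 5 arrays low in Ttr and at 9.29 to 10.76 (median 10.00) in the other 13. Among those 13, 1 array stood below the 5: engrafted stroke mouse 3, with Tgfb2 at 9.29 and a Ttr of 13.03, the lowest of the 13. Its mean over 10 choroid plexus markers was 9.93. That lay between the 5 (8.63 to 8.98) and the rest of the 13 (11.18 to 12.02). This array stayed in the fits without the 5. Tgfb3 lay at 11.55 to 11.74 in the 5 and at 11.27 to 11.65 in the other 13. The part of choroid plexus tissue in the Tgfb2 values was not tested.

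**Figure D2:**
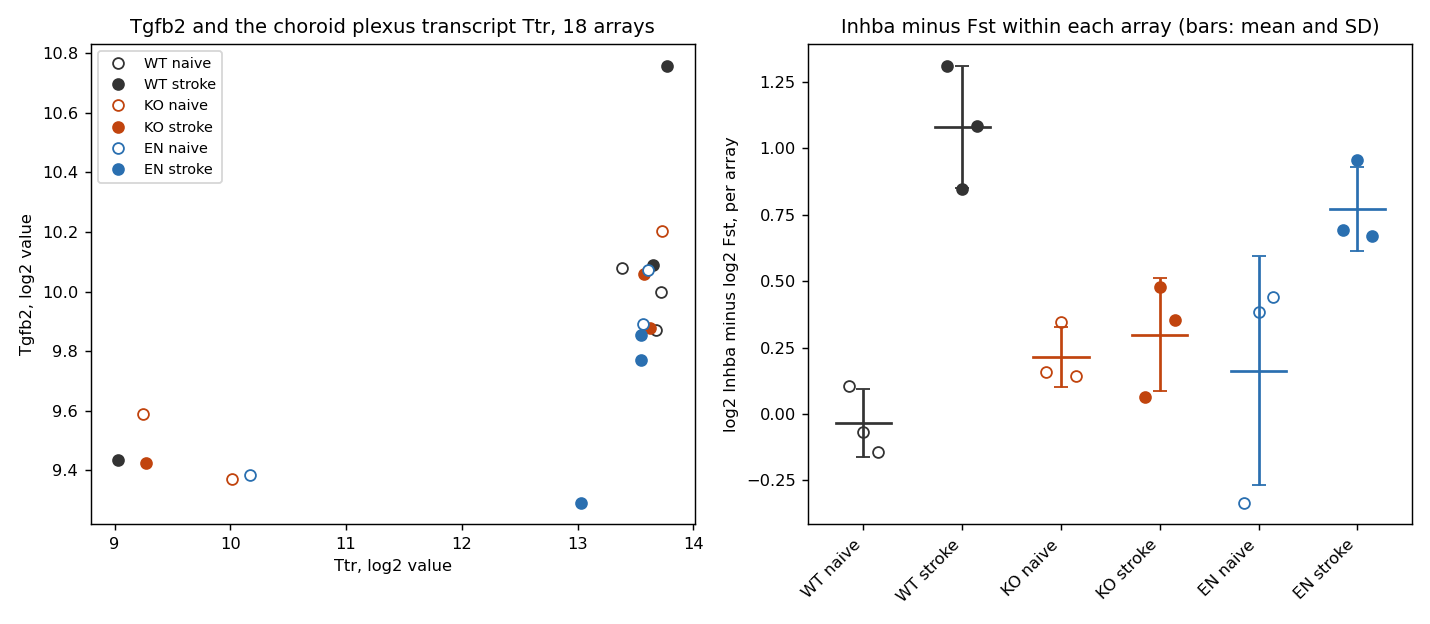
Left, log2 Tgfb2 against log2 Ttr, 1 point per mouse: the 5 arrays low in Ttr all lie below 9.6 in Tgfb2, as does 1 other array. Right, log2 Inhba minus log2 Fst in each mouse, with group mean and SD. Wild-type stroke mice lie at 0.85 to 1.31 and engrafted stroke mice at 0.67 to 0.95, both above all naive mice. Deficient stroke mice lie at 0.07 to 0.48 and overlap the naive ones. The height of this difference depends on 2 probe sets and has no zero of its own, so that only changes between groups can be read.

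Inhba (probe set 10403743) encodes the inhibin beta A subunit, whose dimer is activin A. Its naive wild-type values were 8.03, 7.85 and 7.98 and its wild-type stroke values 9.01, 8.83 and 8.87, a rise of 0.95 ± 0.15 (adjusted p = 0.000701). All 3 stroke mice lay above all 3 naive mice, and above every mouse of the other groups. Deficient mice gave 8.34, 8.34 and 8.24 when naive and 7.89, 8.46 and 8.20 after stroke, a difference of -0.13 ± 0.15 (adjusted p = 0.699). Engrafted mice gave 8.02, 8.30 and 8.68 when naive and 8.43, 8.65 and 8.43 after stroke, a difference of 0.17 ± 0.15 (adjusted p = 0.734). In both mutant categories the naive and stroke values of Inhba overlapped.

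The stroke response of Inhba was smaller in deficient than in wild-type dura by 1.07 ± 0.21 (log2, SE; 95% interval -1.51 to -0.63; adjusted p = 0.0373). It was the 1 member of 10 that passed this test of the difference, against 0.351% of all probe sets. Both ends contributed to the number: after stroke Inhba was lower in deficient than in wild-type dura by 0.72 ± 0.15 (adjusted p = 0.0145; 1 of 10 members, against 2.61%), and by 0.89 without the 5 arrays low in Ttr (adjusted p = 0.0181), while naive deficient mice lay above all naive wild-type mice, by 0.35 ± 0.15 (adjusted p = 0.695). The response of engrafted dura differed from that of wild type by -0.77 ± 0.21 (adjusted p = 0.185), where 0 of 10 members and 0.106% of probe sets passed, with 3 members (13.2% of probe sets) at an unadjusted p under 0.05. Between engrafted and deficient stroke dura Inhba differed by 0.32 ± 0.15 (adjusted p = 0.778). Engrafted stroke mice all lay below the wild-type stroke mice in Inhba, but that difference did not pass either (-0.40, adjusted p = 0.27).

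The difference between the deficient and wild-type responses of Inhba kept its direction in every alternative (-1.28 to -0.93) but not its call. When 1 array was left out it passed in 5 of 18 fits, those without naive engrafted mouse 1 or 3, deficient stroke mouse 2, or engrafted stroke mouse 1 or 2; in the other 13 its adjusted p reached 0.118. Without the 5 arrays low in Ttr it was -1.28 (adjusted p = 0.13), with naive deficient dura then held by 1 array that is assumed to vary like the other groups. The lower Inhba level in deficient stroke dura was not called without wild-type stroke mouse 1 (-0.66, adjusted p = 0.0674), deficient stroke mouse 1 (-0.57, 0.0505) or deficient stroke mouse 3 (-0.72, 0.0574). The wild-type rise of Inhba passed in every alternative, at 0.89 to 1.06.

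Inhbb (probe set 10357155), the beta B subunit of activin B, did not pass in any comparison. It ran from 8.98 to 9.45 in naive and from 9.21 to 9.44 in stroke wild-type dura, and from 8.80 to 9.10 against 9.10 to 9.21 in deficient dura. In engrafted dura it stood at 9.21, 9.26 and 9.02 when naive and at 8.68, 8.94 and 8.97 after stroke, without overlap but short of the threshold (-0.30 ± 0.12, adjusted p = 0.347). The signs of the Inhbb differences were positive in wild type (0.21) and deficient dura (0.19), and the difference between the engrafted and wild-type responses was -0.51 ± 0.17 (adjusted p = 0.247).

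Fst (probe set 10412260), which encodes follistatin, the secreted protein that binds and blocks activin, was lower after stroke when the 3 categories were averaged. Naive values were 7.93, 7.92 and 8.13 in wild type, 8.19, 8.00 and 8.10 in deficient and 8.36, 7.91 and 8.24 in engrafted dura. After stroke they were 7.70, 7.98 and 7.78, then 7.83, 7.98 and 7.84, then 7.73, 7.70 and 7.76. The groups overlapped in wild type only. The averaged difference was -0.27 ± 0.06 (adjusted p = 0.007), and the separate ones were -0.17 ± 0.10, -0.21 ± 0.10 and -0.44 ± 0.10 (adjusted p = 0.327, 0.392 and 0.0576). In the averaged comparison 4 of 10 members passed, against 13.5% of all probe sets (8.05% higher and 5.42% lower): Tgfb1 (0.40 ± 0.06) and Inhba (0.33 ± 0.08) higher, Fst and Ltbp2 lower. The average for Inhba joins 0.95 in wild type with -0.13 in deficient and 0.17 in engrafted dura. That for Tgfb1 joins 0.73 with 0.17 and 0.28. For both, only the wild-type rise passed by itself. Without the 5 arrays low in Ttr the averaged Fst difference was -0.27 (adjusted p = 0.0529), and the engrafted one passed without naive engrafted mouse 2 (-0.57, adjusted p = 0.0179).

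The difference Inhba minus Fst, taken within each mouse, was higher in stroke than in naive mice when the categories were averaged. The mean of Inhba minus Fst moved from -0.04 to 1.08 in wild type, from 0.22 to 0.30 in deficient and from 0.16 to 0.77 in engrafted dura. In deficient dura the naive values (0.14 to 0.34) and the stroke values (0.07 to 0.48) overlapped. Averaged over the categories the shift was 0.60 (exact permutation test within categories, two-sided, p = 0.002; adjusted over the 3 pairs tried, 0.003). Tgfb1 minus Tgfb3 was higher by 0.36 in the same average (p = 0.00025, the smallest that the 8000 relabellings can give in this exact test; adjusted 0.00075), with 0.61 in wild type, 0.20 in deficient and 0.26 in engrafted dura. Tgfb1 minus Tgfb2 shifted by 0.38 (exact permutation p = 0.103, adjusted 0.103), with the large spread of Tgfb2 in it. Without naive engrafted mouse 3 or wild-type stroke mouse 3 that adjusted p was 0.0485 or 0.0425. The 3 pairs were chosen with earlier results of these data known, which the adjustment over 3 pairs does not cover. They share their values with the member tests and are not separate evidence.

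**Figure D3:**
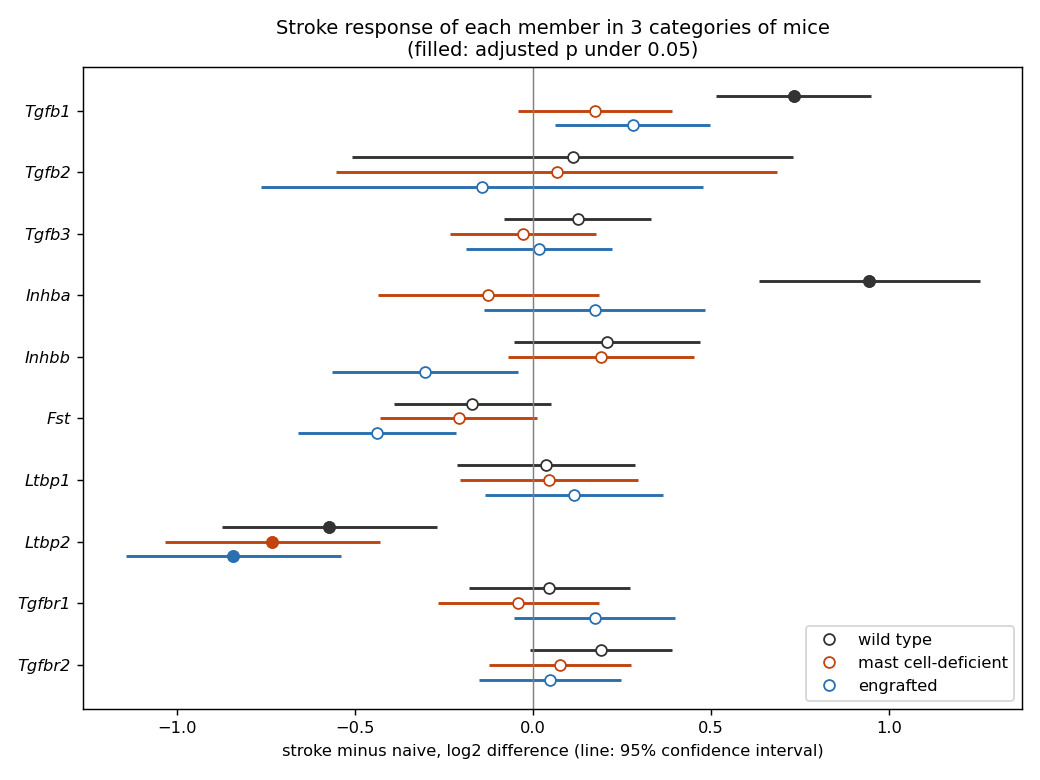
Stroke minus naive difference of each member (log2, points) with its 95% confidence interval (lines) in wild-type, deficient and engrafted dura; filled points passed an adjusted p of 0.05. Tgfb1 and Inhba are filled in wild type, and Ltbp2 lies left of zero in all 3 categories.

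Ltbp2 (probe set 10401527) encodes latent TGF-beta binding protein 2, a fibrillin-associated matrix protein that, unlike the other LTBPs, does not bind latent TGF-beta. It was lower after stroke in every category. Naive wild-type mice stood at 9.95, 9.94 and 9.74 and stroke mice at 9.33, 9.48 and 9.09 (-0.57 ± 0.14, adjusted p = 0.0175). Deficient mice stood at 10.33, 10.09 and 10.57 and after stroke at 9.57, 9.82 and 9.40 (-0.73 ± 0.14, adjusted p = 0.0482). Engrafted mice stood at 10.22, 10.19 and 10.61 and after stroke at 9.54, 9.50 and 9.45 (-0.84 ± 0.14, adjusted p = 0.0095). No stroke mouse overlapped the naive mice of its category, and the averaged fall of 0.72 ± 0.08 on the log2 scale (adjusted p = 3.94e-05) passed in every alternative. The difference between categories in this response was not resolved: deficient minus wild type was -0.16, with a 95% interval of -0.59 to 0.27, and engrafted minus wild type -0.27, with -0.70 to 0.16.

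Naive deficient and naive engrafted mice all lay above the naive wild-type mice in Ltbp2, by 0.45 ± 0.14 (adjusted p = 0.605) and 0.46 ± 0.14 (adjusted p = 0.141), and neither difference passed. In naive dura 0 of 10 members passed in any pair of categories, against 0.0185% of probe sets for deficient minus wild type, 0.0185% for engrafted minus deficient and 0% for engrafted minus wild type by limma, with 4, 0 and 3 members (6.82%, 4.7% and 19.1% of probe sets) at an unadjusted p under 0.05. The 3 naive mice highest in Ltbp2, deficient 1 and 3 and engrafted 3, were those low in Ttr. The other naive deficient mouse (10.09) and naive engrafted mice (10.22 and 10.19) also lay above all naive wild-type mice. The separate calls of Ltbp2 were less firm than the averaged one. In deficient dura it passed in 4 of 18 fits that left out 1 array, those without naive deficient mouse 2, naive engrafted mouse 3, or wild-type stroke mouse 2 or 3, with an adjusted p of up to 0.22 in the others and a difference of -0.85 to -0.61, and without the 5 arrays low in Ttr it was -0.60 (adjusted p = 0.116). In wild type it was not called without naive mouse 1 (adjusted p = 0.0508), naive mouse 2 (0.0609) or stroke mouse 3 (0.0837).

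Ltbp1 (probe set 10446928), which does tether latent TGF-beta to the matrix, and the receptors Tgfbr1 (probe set 10504817) and Tgfbr2 (probe set 10597518) did not pass in any comparison. Ltbp1 ran from 9.05 to 9.58, with stroke differences of 0.04, 0.04 and 0.12 in wild-type, deficient and engrafted dura (SE 0.12 each). Tgfbr1, the type I receptor, ran from 10.10 to 10.60, with differences of 0.05, -0.04 and 0.17 (SE 0.11). Tgfbr2, the ligand-binding type II receptor, ran from 10.93 to 11.38. In wild type its stroke mice (11.30, 11.29 and 11.25) lay just above the naive ones (11.11, 11.23 and 10.93), a difference of 0.19 ± 0.09 (adjusted p = 0.215). The 95% intervals of the 9 stroke differences of these 3 genes ran from -0.27 to 0.40.

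Among the other comparisons after stroke, 0 of 10 members passed for engrafted minus deficient (0.0277% of probe sets by limma, 2 members and 6.28% of probe sets at an unadjusted p under 0.05) and 0 for engrafted minus wild type (0.411%, with 2 members and 11.6% unadjusted). The difference between the engrafted and deficient stroke responses also had 0 members past the threshold (0.00462% of probe sets, 1 member and 9.69% of probe sets at an unadjusted p under 0.05). Groups without overlap were found in 3 members higher and 1 lower in wild type (15.8% and 14.2% of probe sets), 1 and 2 in deficient (13.7% and 5.92%) and 1 and 3 in engrafted dura (8.89% and 7.6%).

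Further genes of the pathway were counted from 4 lists. Of 19 measured genes that control TGF-beta and activin outside the cell, 4 rose and 2 fell after stroke in wild type, 0 and 1 in deficient, and 0 and 1 in engrafted dura, with medians of 0.09, 0.03 and -0.05. The shares of all probe sets that passed were 10.9%, 0.25% and 1.11% in the 3 categories. Fstl1, a follistatin-like glycoprotein, rose by 0.68 ± 0.10 in wild type (adjusted p = 0.000375), Fstl3, a secreted activin antagonist related to follistatin, by 0.46 ± 0.08 (adjusted p = 0.00206) and Emilin1, a matrix glycoprotein that restrains TGF-beta processing, by 0.51 ± 0.12 (adjusted p = 0.0139, with 0.0751 without naive mouse 3 and 0.0619 without stroke mouse 2). Thbs1, thrombospondin 1, an activator of latent TGF-beta, fell in each category, by 0.53 ± 0.14, 0.76 ± 0.14 and 0.78 ± 0.14 on the log2 scale (adjusted p = 0.0251, 0.0327 and 0.0134). When 1 array was left out, the Thbs1 call was lost in wild type for naive mice 2 and 3 and stroke mice 1 and 2 (adjusted p of up to 0.105). It was lost in engrafted dura for naive mouse 1 (0.0771) and in deficient dura for naive mice 1 and 3, the 3 stroke mice and wild-type stroke mouse 1 (up to 0.181). Without the 5 arrays low in Ttr Thbs1 passed in no single category (-0.46, -0.63 and -0.75, adjusted p = 0.137, 0.274 and 0.0786). It also did not pass with the choroid plexus and neuronal covariates in wild type (0.0715), with only the compared groups in deficient (0.227) and engrafted dura (0.138), or with all probe sets in deficient dura (0.0525). The remaining 2 that changed in wild type, Lrrc32 (0.43) and Ltbp4 (-0.40), were chosen after their values were seen.

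Of 11 measured receptors and co-receptors, 2 rose and 1 fell in wild type, with 0 in deficient and 0 in engrafted dura (limma), beside 10.9%, 0.25% and 1.11% of all probe sets. These 3, named after their values were seen, were the TGF-beta co-receptors Cd109 (0.56) and Eng (0.38) and the type I receptor Acvr1c (-0.64). Acvr1, a type I receptor for activin and bone morphogenetic proteins, was lower in the averaged comparison by -0.17 ± 0.05 (adjusted p = 0.049), with similar values of -0.17, -0.15 and -0.18 in the 3 categories, a call that was lost in 14 of 18 fits without 1 array (adjusted p of up to 0.0969). The list's medians were 0.00, -0.12 and -0.02.

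Of 16 measured SMADs and SMAD regulators, 2 rose and 1 fell in wild type and 0 passed in the mutant categories (limma), beside 10.9% of all probe sets in wild type, 0.25% in deficient and 1.11% in engrafted dura. Pmepa1, a membrane protein that holds back receptor SMADs, rose by 0.58 ± 0.07 in wild type (adjusted p = 5.7e-05) and differed by 0.01 in deficient and 0.10 in engrafted dura. Its response was smaller in deficient than in wild-type dura by 0.57 (adjusted p = 0.0131), which was not called without deficient stroke mouse 3 (adjusted p = 0.0534) or without the 5 arrays low in Ttr (-0.63, 0.244). Tgif1, a SMAD co-repressor, rose by 0.49 ± 0.09 in wild type (adjusted p = 0.00339), and Zfyve9, which brings SMADs to the receptor, fell by 0.48 ± 0.12 on the log2 scale (adjusted p = 0.0155; 0.0725 without naive mouse 2, 0.0722 without stroke mouse 3, 0.0576 without the 5 arrays low in Ttr and 0.0514 with only the compared groups). Smad6, an inhibitory SMAD, was higher by 0.16 ± 0.05 in the averaged comparison (adjusted p = 0.03, lost in 7 of 18 fits without 1 array), with 0.03, 0.30 and 0.14 in the 3 categories. Smad2, Smad3 and Smad4, which carry the signal to the nucleus, did not pass in the stroke comparisons.

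Of 18 measured genes known as TGF-beta targets, 8 rose and 0 fell in wild type, 1 rose in deficient and 2 rose in engrafted dura. Over all probe sets 6.24% rose and 4.63% fell in wild type, and 0.25% passed in deficient and 1.11% in engrafted dura. The medians were 0.32, -0.02 and 0.07, beside 0.01, 0.04 and -0.01 over all probe sets tested. Timp1, an inhibitor of matrix metalloproteinases, rose by 2.01 ± 0.13 in wild type, 0.97 ± 0.13 in deficient and 1.26 ± 0.13 in engrafted dura (adjusted p = 2.99e-07, 0.00718 and 0.000271). Vcan, the matrix proteoglycan versican, rose in wild type (1.24 ± 0.15) and in engrafted dura (1.04 ± 0.15, adjusted p = 0.00316), with 0.16 ± 0.15 in deficient dura. Between the engrafted and deficient responses, however, 0 of the 18 genes passed, Vcan included (0.00462% of all probe sets by limma). In levels after stroke 0 of 18 passed between engrafted and deficient dura (0.0277%). Lox, which cross-links collagen, rose by 1.05 ± 0.16 in wild type, and Itga5, the fibronectin receptor subunit, by 0.98 ± 0.11. Snai1, a transcription factor of mesenchymal transition, rose by 0.79 ± 0.10 and Tgfbi, a matrix protein named for its induction by TGF-beta, by 0.41 ± 0.07, both in wild type. These genes have many regulators besides TGF-beta. In the averaged comparison 8 rose and 2 fell, the latter being Postn (-0.65 ± 0.13) and Cyr61 (-0.60 ± 0.16), both named after their values were seen.

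**Figure D4:**
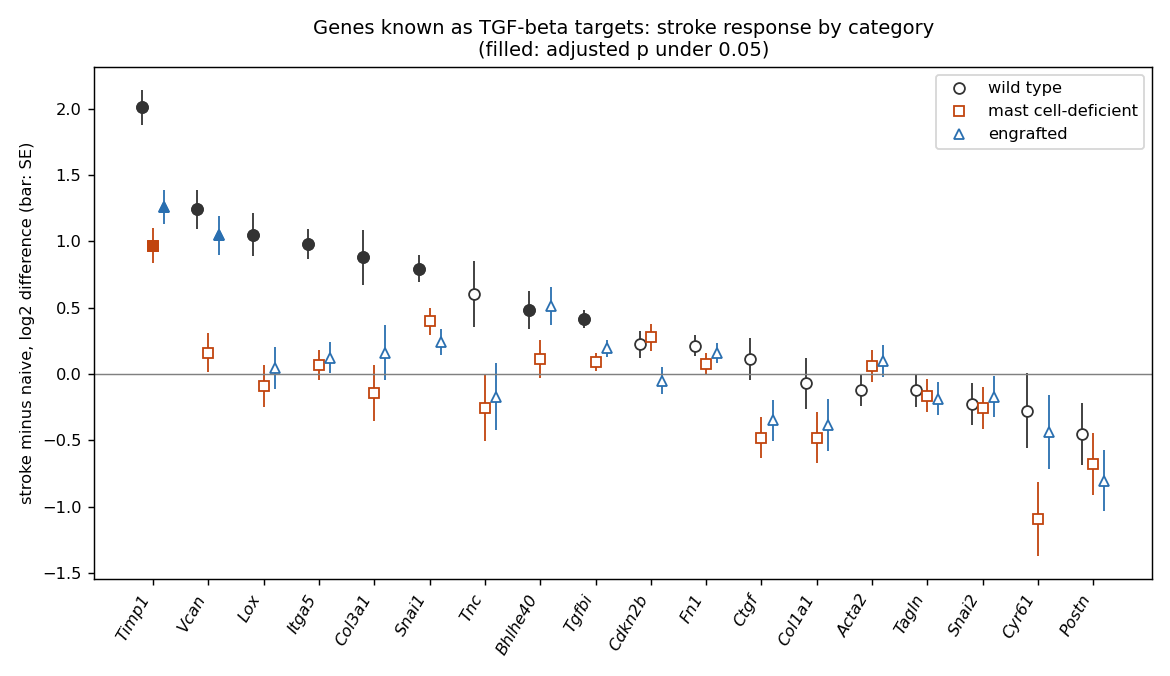
Stroke minus naive difference (log2, points) with SE (bars) for the 18 measured genes known as TGF-beta targets, in wild-type (circles), deficient (squares) and engrafted (triangles) dura, ordered by the wild-type difference; filled points passed an adjusted p of 0.05. In wild type 8 points are filled, from Timp1 at 2.01 to Tgfbi at 0.41; in deficient dura 1 is filled, and in engrafted dura 2 are.

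The response of 4 of these 18 target genes was smaller in deficient than in wild-type dura and that of 0 was larger, against 0.342% and 0.00924% of all probe sets. They were Lox (-1.14, adjusted p = 0.0416), Vcan (-1.08, 0.0401), Timp1 (-1.04, 0.0209) and Itga5 (-0.91, 0.0209). For the difference between the engrafted and wild-type responses 0 of 18 passed (limma). When 1 array was left out, the calls were lost in 15 of 18 fits for Lox, 14 for Vcan, 8 for Timp1 and 8 for Itga5. Lox passed without naive deficient mouse 2 or engrafted stroke mice 1 or 2, and Vcan without naive deficient mouse 1, naive engrafted mouse 3 or engrafted stroke mice 1 or 3. Timp1 failed without wild-type naive or stroke mice 2 or 3, naive deficient mice 1 or 3, or deficient stroke mice 2 or 3, with an adjusted p of 0.0822 without naive deficient mouse 1. Itga5 failed for the same mice except that wild-type naive mouse 1 stood in place of naive mouse 2. Without the 5 arrays low in Ttr, 0 of these 4 passed by limma, at -0.81 for Lox (adjusted p = 0.541), -1.08 for Vcan (0.244), -0.84 for Timp1 (0.395) and -0.66 for Itga5 (0.45). In that fit naive deficient dura was held by 1 array, and the calls over the whole table fell from 76 to 6. These differences use the same mice as that of Inhba, so they are not separate evidence. In levels after stroke, 4 of the 18 were lower in deficient than in wild-type dura (1.97% of probe sets by limma). Of these, Vcan (-0.86, adjusted p = 0.00595) and Itga5 (-0.77, 0.0016) passed in every alternative. In engrafted against wild-type stroke dura 1 of 18 was lower (0.314% of probe sets), Itga5 (-0.66, adjusted p = 0.0175). That call was lost in 3 of 18 fits without 1 array and in 3 of 10 other alternatives.

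Marker genes of other cells moved beside these results. Their counts stand beside 10.9% of all probe sets that passed in wild type (6.24% higher and 4.63% lower). In deficient dura 0.25% of probe sets passed, and in engrafted dura 1.11%. The mean level of 8 monocyte and macrophage markers went from 9.55 to 9.81 in wild type, from 9.60 to 9.70 in deficient and from 9.59 to 9.91 in engrafted dura, with 3, 0 and 1 of 8 markers higher after stroke. That of 9 neutrophil markers went from 8.16 to 8.72, from 7.52 to 8.02 and from 7.97 to 8.70, with 4, 0 and 0 of 9 higher. The neutrophil mean thus rose in each category, whatever the counts. Neuronal markers went from 10.34 to 9.56 in wild type, with 5 of 8 lower, from 10.46 to 10.12 in deficient and from 10.41 to 10.30 in engrafted dura, with 0 of 8 in each. Of 6 astrocyte markers 1 was higher and 3 were lower in wild type (median difference -0.55), with 0 of 6 in deficient (-0.16) and engrafted dura (0.09). Of 6 bone markers 2 were higher in wild type (mean level 9.71 to 10.06), with 0 of 6 in deficient (10.24 to 10.16) and engrafted dura (10.30 to 10.11). Mast cell markers stood at 7.54 and 7.31 in wild type, 5.71 and 5.83 in deficient, and 7.61 and 7.63 in engrafted dura (naive and stroke). When the scores of choroid plexus and neuronal markers were added to the fit, the wild-type differences were 0.51 for Tgfb1 and 1.06 for Inhba (adjusted p = 0.00894 and 0.00765). In that fit Fstl3 (0.105), Emilin1 (0.204), Tgif1 (0.177) and Lox (0.0545) no longer passed in wild type. With only the compared groups in the fit, Ltbp2 (0.0685) and Vcan (0.0705) did not pass in engrafted dura, nor Timp1 (0.182) in deficient dura, where it also did not pass without the 5 arrays low in Ttr (0.0852). The part of monocytes, macrophages and neutrophils in the Tgfb1 and Inhba differences was not tested.

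For the 3 members with the smallest p in the averaged stroke comparison, the genes whose values ran most like theirs were found over the 18 arrays, as a description. Ltbp2 ran closest to Cpxm1 (Pearson r = 0.936), Sfrp2 (0.936) and Cilp2 (0.93), Tgfb1 to Il4ra (0.96), Col4a2 (0.959) and Tram2 (0.951), and Fst to Thbs1 (0.811), Herpud1 (0.807) and Mtarc1 (0.803). These genes share their arrays and groups with the members.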

How the data were processed

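Gene expression was measured in dura from 18 mice, 1 array per mouse, on an Affymetrix mouse gene-level array. The authors deposited 1 summary value on the log2 scale for each probe set. Per the submitters' processing notes RMA, affy and R 3.0.0 were used, in roles that are not given, so that differences may be compressed at low signal in a way that cannot be undone here. The labels give no scan date or batch. Of 34760 probe sets, 21640 had exactly 1 symbol in the probe annotation and were tested (19937 genes); 1321 with several symbols and 11799 with none were left out, and 21553 matched the RefSeq table of GRCm38.p6.

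With limma 3.58.1 (R 4.3.3), the 6 group means were fitted over the 18 arrays together (12 residual and 3.41 prior degrees of freedom), and p-values were given the Benjamini-Hochberg adjustment over the 21640 probe sets in each of 13 comparisons, at 0.05 with no minimum change. Precision is set by 3 arrays per group: the median SE was 0.096 between groups of 3 and 0.136 between responses. Differences between 2 members of an array were tested by exact permutation within categories. Python 3.11.15 with pandas 2.3.3 and matplotlib 3.10.9 served for tables and plots.

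The members, lists and tests were chosen with earlier results of these data known. Genes named from each list were the up to 4 with the smallest p among those that passed in the averaged stroke comparison, and any that passed in an interaction; other names are marked. Alternatives were leaving out each array, dim probe sets left out, array weights, a variance model with trend and robust moderation, quantile normalization a second time, a replicate block, fits on only the compared groups or on all probe sets, and the mean of a gene's probe sets. A fit without the 5 arrays lowest in Ttr and one with covariates (choroid plexus and neuron scores) were added after seeing the data. The labels name no pairing by replicate number. Deviations from group means of same-numbered mice had a mean correlation of -0.05 (-0.61 to 0.60), and of other-numbered mice 0.03. With 3 mice per group these correlations cannot exclude a pairing or a shared batch.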

Additional observations from a re-analysis of the deposited data

Results flagged for a closer look

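Of the members, Inhba had a stroke response that differed between categories, smaller in deficient than in wild-type dura by -1.07 on the log2 scale (limma adjusted p = 0.0373). Among the listed pathway genes, the same test of the difference passed for Pmepa1 (-0.57, adjusted p = 0.0131), Lox (-1.14, adjusted p = 0.0416), Timp1 (-1.04, adjusted p = 0.0209), Itga5 (-0.91, adjusted p = 0.0209) and Vcan (-1.08, adjusted p = 0.0401). Most of these calls were not firm. With 1 array left out, that of Inhba was lost in 13 of 18 fits. The call was lost in 15 for Lox, 14 for Vcan, 8 for Timp1, 8 for Itga5 and 1 for Pmepa1. These 6 differences are taken between the same 12 mice, and their adjusted p also uses the spread over all 18 arrays. The values of neutrophil, macrophage, neuron and mast cell markers in those groups are given above, and their part in the differences was not tested.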

How the results depend on the processing

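Of 57 called differences, those of members and of the listed genes named by the rule, none reversed its direction and 24 kept their call in every alternative, among them those of Tgfb1 and Inhba in wild type and of Tgfb1, Inhba and Ltbp2 in the averaged comparison. Of 114 member differences called neither in the report nor in any alternative, 63 changed sign in at least 1 of 28 alternatives, so that no direction should be read from them. Counts of members called were as follows. For stroke in deficient dura (1 in the report) the count was 0 with a replicate block, a second quantile normalization, only the compared groups, all probe sets, or without the 5 arrays lowest in Ttr. For stroke in engrafted dura (1) it was 2 with a second quantile normalization (Ltbp2 and Fst), 0 with only the compared groups and 3 with the covariates. For the difference between the deficient and wild-type responses (1) it was 0 with a replicate block, all probe sets, without those 5 arrays or with the covariates, and 2 with array weights. For deficient minus wild type after stroke (1) it was 3 with array weights and 0 with only the compared groups. With 1 array left out these 4 counts ran from 0 to 1, 1 to 2, 0 to 1 and 0 to 2, that of wild type from 2 to 3, and the averaged one stayed at 4. The shift of Tgfb1 minus Tgfb2 then ran from 0.254 to 0.50, and it passed in 2 of those fits.

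Array weights raised the probe sets called over the table for stroke in deficient dura from 54 to 1326, and only the compared groups lowered them to 1; the cause was not tested. The replicate number is not named as a pairing in the labels. As a block it ended the calls of Ltbp2 in deficient dura (adjusted p = 0.0976) and of Inhba in the difference between deficient and wild-type responses (adjusted p = 0.0631). Only the compared groups gave no value for the averaged comparison. The number of arrays, 3 per group, limits what could be called.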
